A study of Mus musculus with 4 samples.

Results

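Transcripts of macrophages, monocytes, neutrophils, dendritic cells, red blood cells and platelets were measured in sorted splenic B cells of the mouse. The set comprised 40 genes, named by symbol as markers of these lineages, of 37646 genes listed in the count tables, and each symbol matched exactly 1 gene. It held 12 macrophage genes, 5 genes shared by myeloid cells, 1 monocyte gene, 9 neutrophil genes, 4 dendritic cell genes, 5 erythroid genes and 4 platelet genes. The cells came from C57BL/6 mice that carried 1 copy each of a Cre recombinase in the Cg1 (Ighg1) locus and of a YFP reporter behind a floxed stop (YFPstopF/+Cg1Cre/+), with no lymphoma allele. Mice were immunised intraperitoneally with sheep red blood cells, and the labels place the samples 10 days after the second dose, with a first dose 20 days earlier. Red cells were lysed with ACK buffer, dead cells were excluded with 7AAD, and living B220+ YFP+ cells, labelled germinal centre B cells, were sorted. All 4 libraries belonged to this 1 group of normal controls, and they are numbered 1 to 4 in accession order. Lymphoma models, which the design also names, were not analysed here. Cre in this locus is known to act in B cells on activation, and myeloid cells, red cells and platelets are not known to use it.

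Each of these lineages is known by a small number of proteins. Red pulp macrophages of the spleen clear old red cells and recycle their iron, for which they need the haem-degrading enzyme Hmox1 and the transcription factor Spic, and macrophages in germinal centres take up dying B cells. Neutrophils load their granules in order as they mature in the bone marrow. Myeloperoxidase and elastase of the primary granules are made first, lactoferrin, cathelicidin and neutrophilic granule protein of the secondary granules follow, and mature cells stop making both. Red cell precursors make haem and globin, platelets carry RNA from the megakaryocytes that shed them, and plasmacytoid dendritic cells of mice carry B220 on their surface, as B cells do.

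The libraries held 13777954 to 14629025 counts, so that a transcript with no read could still be present at up to 3 counts, which is 0.205 to 0.218 CPM (counts for each 1000000 of the library's total). Pairs of libraries differed by 30.5 to 73.5 times counting noise (chi-square per degree of freedom over genes), so none was a second deposit of another. The labels do not state that each library came from its own animal, and the spread between libraries may be technical in part. Y-linked Ddx3y had 1307 counts in library 3, against 0 to 3 elsewhere, and Xist had 6, against 8689 to 12160, so that sex and any other difference of library 3 cannot be told apart. Markers of the labelled cell type were present: all 12 B lineage genes examined exceeded 1 CPM in every library, and Bcl6, the germinal centre regulator, was at 154 to 307 CPM. All 15 T cell genes examined also exceeded 1 CPM in every library, so this bar alone does not identify the cells. The median T cell gene stood at 16.5 TPM, against 351 TPM for the B lineage genes. The 11 germinal centre genes examined summed to 2251, 1475, 2123 and 1700 CPM in libraries 1 to 4, lowest in library 2. Levels per length are TPM (transcripts for each 1000000, after division by exon length), given as mean ± SD over 4 libraries, and levels of 1 gene in different libraries are CPM of the deposited total.

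All 40 transcripts were found, at low levels. Together they took 0.0628% of the counts in library 1 (exact 95% binomial interval 0.0615 to 0.0641%), 0.045% in library 2 (0.0439 to 0.0461%), 0.0365% in library 3 (0.0356 to 0.0375%) and 0.0634% in library 4 (0.0621 to 0.0647%). Intervals cover counting error only, since reads are not independent molecules. The median member stood at 10.3 TPM, the median of the 12 B lineage genes at 351 TPM. Of the 40 members, 29 exceeded 1 CPM in every library and 38 had at least 1 count in every library. Elane and Retnlg were the exceptions, with 0 counts in 2 libraries and in 1 library. In a sorted population, fewer cells of a type and less RNA per cell cannot be told apart, so none of these levels is a number of cells.

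Macrophage genes had the highest summed level, at 298 ± 52.6 TPM over 12 genes, ahead of the neutrophil genes at 214 ± 87.8 TPM over 9 genes, the erythroid genes at 142 ± 83 TPM over 5 and the shared myeloid genes at 103 ± 32.6 TPM over 5. The platelet genes at 28.3 ± 23.5 TPM, the dendritic genes at 20.3 ± 3.09 TPM and the monocyte gene Ly6c2 at 19.2 ± 9.76 TPM stood far below. The sums of macrophage and neutrophil genes overlapped between libraries, since library 4 had 308 TPM of the first and 330.1 TPM of the second. By the median gene of a lineage, the order began with the erythroid list, at 4.88 ± 0.59 on the log2(TPM + 1) scale, followed by Ly6c2 at 4.15 ± 0.94, the macrophage list at 3.8 ± 0.06, the neutrophil list at 3.48 ± 0.71, the shared myeloid list at 2.83 ± 0.35, the platelet list at 2.12 ± 0.82 and the dendritic list at 1.02 ± 0.6. Lists differ in which genes they hold, so neither order ranks the lineages by cells.

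**Figure D1:**
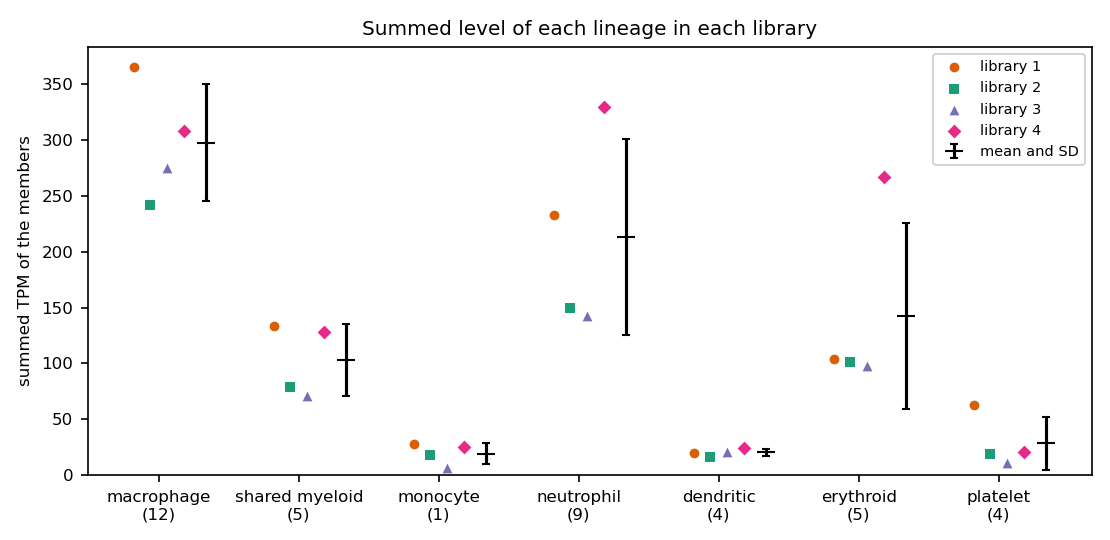
Summed TPM of the members of each lineage (number of genes in brackets) in libraries 1 to 4, with the mean and SD over the 4 libraries as a black bar. Library 4 was highest in the erythroid sum, at 267 TPM against 97.8 to 104 TPM in the others, and library 1 in the platelet sum, at 62.9 TPM against 10.4 to 21 TPM.

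**Figure D2:**
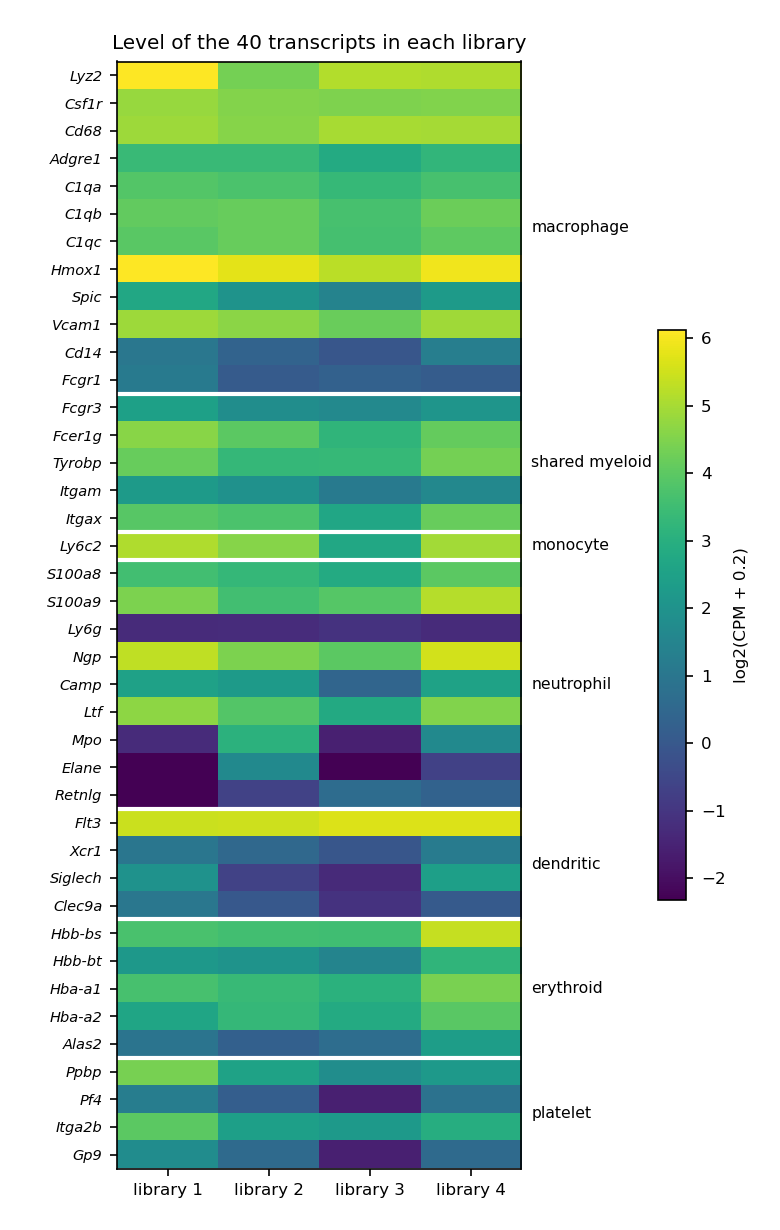
Level of each of the 40 members in each library as log2(CPM + 0.2), with white lines between lineages. Hmox1, Lyz2 and Flt3 were among the brightest rows, and the dark cells are Ly6g in every library and Mpo, Elane, Retnlg, Siglech, Clec9a, Pf4 and Gp9 in some.

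Of the 12 macrophage members 9 were lowest in library 3, and the highest library exceeded the lowest by 1.26-fold for Csf1r to 3.36-fold for Lyz2. The complement genes C1qa, C1qb and C1qc, neighbours on chromosome 4 between 136880129 and 136898803 (GRCm38) that encode the chains of the C1q molecule, stood at 26.8 ± 2.75, 33.6 ± 3.94 and 17.8 ± 1.61 TPM. C1qb was at 16.8, 17.5, 12.6 and 18.4 CPM in libraries 1, 2, 3 and 4. The ratio of C1qb to C1qa counts lay between 1.17 and 1.47, and that of C1qc to C1qa between 1.07 and 1.35. These ratios varied 1.26-fold at most, less than the 1.46- and 1.47-fold of C1qa and C1qb levels.

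Csf1r, the receptor through which macrophages receive their survival signal (chromosome 18, 61100598 to 61132149), was at 28.2, 23.3, 22.4 and 22.6 CPM in libraries 1 to 4, highest in library 1 and nearly equal in the other 3. Of the 50-base stretches in Csf1r transcripts, 14.3% also occur in Hmgxb3, which was at 46.6 to 52.2 CPM. Adgre1, which encodes the surface antigen F4/80, was at 10.2, 10.4, 6.9 and 9.3 CPM, lowest in library 3. Cd68, a protein of the macrophage endosome, stood at 52.5 ± 9.96 TPM and was lowest in library 2, at 23.7 CPM against 29.1 to 32 CPM in the others.

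Genes of red pulp macrophages spanned high and low levels. Hmox1 was the most abundant member by counts, at 69.2, 54, 37.8 and 60.7 CPM in libraries 1, 2, 3 and 4 (70.8 ± 14.5 TPM). Spic, which drives the red pulp macrophage programme, was at 6.53, 3.85, 2.53 and 4.61 CPM. Vcam1, an adhesion molecule of these macrophages and of stromal cells, was at 29.2, 25, 18.1 and 30.3 CPM. All 3 were lowest in library 3, and the Spic to Hmox1 count ratio varied 1.41-fold, from 0.0669 in library 3 to 0.0944 in library 1. Cd14, a coreceptor for endotoxin, and Fcgr1, the high-affinity IgG receptor gene, were thinly counted, at 1.48 ± 0.681 and 1.2 ± 0.53 CPM, and varied 2.97- and 2.28-fold.

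Lyz2, the lysozyme gene of macrophages, monocytes and neutrophils, had the widest range of the macrophage set. It was at 68.9, 20.5, 35.3 and 34.5 CPM in libraries 1, 2, 3 and 4, highest in library 1 and lowest in library 2, a 3.36-fold range. Its ratio to C1qb counts ran from 1.17 in library 2 to 4.11 in library 1. Of the 50-base stretches in the annotated Lyz2 transcripts, 15.4% also occur in its neighbour Lyz1, which had 5 to 12 counts per library.

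Of 18 further macrophage markers, 13 exceeded 1 CPM in every library. The highest by TPM were Apoe (347) and Lgmn (169), and both were highest in library 3, unlike most macrophage members. Both lay above the highest macrophage member per length, Hmox1 at 70.8 TPM, and which cells made them was not tested. The iron exporter gene Slc40a1, picked after its values were seen, was at 22.1, 16.6, 13.7 and 21.1 CPM, lowest in library 3. Cd163, of the same list, was at 0.923, 3.34, 1.57 and 1.75 CPM, highest in library 2 and lowest in library 1. Of the 18 markers, 7 were lowest in library 3, 4 in library 1, 4 in library 2 and 3 in library 4. Library 3 was lowest for 25.9% of all genes with at least 10 counts. Of markers of marginal zone and metallophilic macrophages, Siglec1 had 38, 17, 16 and 30 counts in libraries 1 to 4, Marco 22, 18, 6 and 15 and Cd209b 0, 3, 3 and 3, while Vsig4, of other tissue macrophages, had 2, 0, 0 and 2, all 4 picked after their values were seen.

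Of the 5 members shared by myeloid cells, 4 were lowest in library 3 and Tyrobp was lowest in library 2. Fcer1g and Tyrobp, adaptors that pass signals from Fc receptors and other myeloid receptors and that natural killer cells also use, stood at 42.2 ± 14.7 and 48.4 ± 17.8 TPM. Fcer1g was at 24.3, 15.5, 9.02 and 17.4 CPM in libraries 1 to 4, and Tyrobp at 17.5, 9.65, 9.91 and 20.3 CPM. Libraries 1 and 4 thus held the higher values of both. Itgax, the integrin chain CD11c, was at 14.9, 13.1, 6.22 and 17.6 CPM, and Itgam, the integrin chain CD11b, was at 2.05 to 4.68 CPM. Of the 50-base stretches in Itgam transcripts, 66.3% also occur in the annotated gene Gm49368, which had 0 counts in every library, and any reads left out for this reason would lower the Itgam level. Both integrins can be made by subsets of B cells as well. Fcgr3, a low-affinity IgG receptor gene, was at 2.94 to 5.39 CPM, and 9.58% of its 50-base stretches also occur in Fcgr2b, the inhibitory receptor gene of B cells, at 134 to 183 CPM. The 8 genes of the NK cell list summed to 75.5, 36.9, 32.2 and 64 CPM in libraries 1 to 4, in the same order of libraries as Fcer1g, and their part in these levels was not tested. The 14 further shared myeloid markers had another order, with sums of 485, 491, 560 and 612 CPM in libraries 1 to 4, and 4 of them were lowest in library 3. Their sum was dominated by Cybb, an oxidase subunit that B cells also make (134 TPM), at 312, 300.0, 373 and 386 CPM, and the next was the transcription factor gene Cebpb (40.3 TPM), at 17.3, 31.7, 19.8 and 39.3 CPM.

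The monocyte gene Ly6c2, a surface antigen of inflammatory monocytes that plasma cells and some T cells also make, was at 34.6, 23.7, 6.49 and 30.5 CPM in libraries 1, 2, 3 and 4. Library 3 had 5.33-fold less than library 1, while the other 3 libraries lay within 1.46-fold of each other. The 7 plasma cell genes examined summed to 2484, 2478, 1210 and 2340 CPM, and the 15 T cell genes to 699, 299, 244 and 557 CPM, both lowest in library 3. Their part in the Ly6c2 level was not tested. Of the 50-base stretches in Ly6c2 transcripts, 14.4% also occur in 1 or more of 538 other genes, and the gene that held the most of them was its neighbour Ly6c1 (6 to 20 counts).

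Other monocyte markers were mostly highest in library 1. Of 11 such markers, 10 had their highest level in library 1, against 27.6% of all genes with at least 10 counts. Ms4a4c (50.3 TPM) and Ifitm3 (18.4 TPM) were the most abundant, and Ifitm3 was the 1 highest in library 4. Ccr2, the chemokine receptor that brings monocytes out of the bone marrow, was at 5.32, 0.436, 3.08 and 4.33 CPM, so that library 2 had 6 counts where the others had 45 to 75. The coagulation factor gene F13a1 was at 3.34, 0.581, 2.46 and 1.47 CPM and the fractalkine receptor gene Cx3cr1 at 3.62, 0.871, 1.44 and 1.82 CPM. All 3, picked after their values were seen, were highest in library 1 and lowest in library 2, as Lyz2 was. Of the 11 markers, 6 were lowest in library 2, 3 in library 3 and 2 in library 4. Library 2 was lowest for 32.8% of all genes with at least 10 counts.

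The neutrophil genes did not share 1 order of libraries. Of genes of the secondary granules and the S100 proteins, 5 were members. S100a9, 1 chain of the calprotectin dimer, was at 21.9, 11.7, 14.8 and 35.8 CPM in libraries 1, 2, 3 and 4 and was the highest member per length (91 ± 46.3 TPM). Its partner S100a8 was at 11.7, 9.65, 6.97 and 15.5 CPM. Ngp, a granule protein related to cathelicidin, was at 39.7, 21.8, 15.8 and 46.4 CPM. Ltf, which encodes the iron-binding lactoferrin, was at 25.5, 14.3, 6.77 and 22.6 CPM, and Camp, the cathelicidin gene, at 5.54, 4.65, 1.16 and 5.66 CPM. Library 4 was highest for 4 of these 5 genes and library 1 for Ltf. Library 3 was lowest for 4 of them and library 2 for S100a9.

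Primary granule genes had another order of libraries. Mpo, the myeloperoxidase gene, had 116 counts in library 2 (8.42 CPM, exact 95% Poisson interval 6.96 to 10.1), 43 in library 4 (3.01 CPM, 2.17 to 4.05), 3 in library 1 and 2 in library 3. Elane, the neutrophil elastase gene, had 41 counts in library 2 and 6 in library 4, and 0 in libraries 1 and 3. The Elane level of library 2, 2.98 CPM, was at least 14-fold higher than in library 1, taken at its floor of 3 counts. Mpo counts were 0.72 times the S100a9 counts in library 2, 0.084 times in library 4 and under 0.01 times in the other 2 libraries. Prtn3 and Ctsg, further proteases of the same granules that were picked after their values were seen, had 26 and 16 counts in library 2, 8 and 8 in library 4, 0 and 0 in library 1, and 1 and 0 in library 3. All 4 genes thus shared the order library 2, library 4 and then the others.

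Several genes of mature neutrophils had yet another order. Retnlg, a resistin-like protein of mature neutrophils, had 0, 6, 20 and 15 counts in libraries 1 to 4. Csf3r, the G-CSF receptor gene, was at 2.56, 1.81, 6.9 and 11.9 CPM, and Il1b, the interleukin 1 beta gene that macrophages also make, at 1.35, 1.16, 4.65 and 9.37 CPM. The gelatinase gene Mmp9 was at 0.71, 0.798, 3.14 and 5.03 CPM and the activating receptor gene Trem1 at 0, 0.145, 1.09 and 2.17 CPM. Of 9 listed genes of late or mature neutrophils, 6 were higher in libraries 3 and 4 than in libraries 1 and 2 with no overlap, these 5 and Cxcr2. The other 3 were not: Mmp25 had 16, 4, 10 and 12 counts, Ltb4r1 5, 0, 2 and 10 counts, and Ly6g, the surface antigen used to identify neutrophils, 3, 3, 4 and 3 counts. Mmp8, a secondary granule gene, had 5, 6, 29 and 22 counts and so took the order of the 6 and not that of Ngp or Ltf. The stage groups, and the genes named here other than members and Il1b, were picked after their values were seen. How many of all genes lay higher in libraries 3 and 4 than in libraries 1 and 2 was not counted. The 6 of 9 thus has no background share to be set against. Titles of libraries 1 and 2 and of libraries 3 and 4 fall in 2 number ranges whose meaning the labels do not give.

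Of the 50-base stretches in Ly6g transcripts 0.448% occur in another gene, so shared sequence covered little of the transcript. Of 16 further neutrophil markers 10 were highest in library 4, against 27.7% of all genes with at least 10 counts. The most abundant of them per length were Lcn2 (8.28 TPM), a secondary granule gene at 13.2, 5.23, 6.36 and 13.8 CPM, and Il1b (4.99 TPM).

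**Figure D3:**
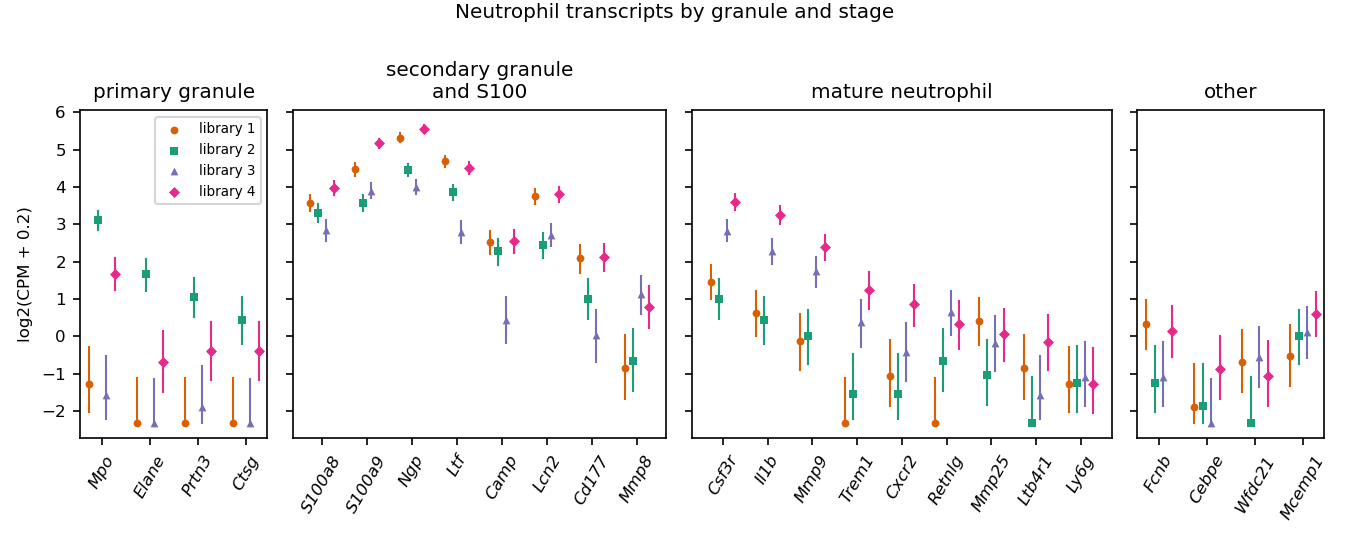
All 25 neutrophil genes listed, 9 members and 16 further markers, in each library as log2(CPM + 0.2), with exact 95% Poisson intervals of the counts as vertical lines, grouped by granule and stage after their values were seen. Library 2 is highest throughout the primary granule panel (Mpo at 8.42 CPM), most secondary granule genes are highest in library 4 (Ngp at 46.4 CPM), and the mature panel holds both genes higher in libraries 3 and 4 (Csf3r) and genes that are not (Mmp25, Ltb4r1, Ly6g).

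Flt3, the receptor gene of dendritic cell precursors, was the steadiest member. It was at 43.4, 44, 50.3 and 51.3 CPM in libraries 1, 2, 3 and 4 (17.3 ± 2.55 TPM, a coefficient of variation of 8.72%) and made up 90.8% of the dendritic counts. The other 3 dendritic genes were low and uneven. Siglech, which marks plasmacytoid dendritic cells, had 53, 6, 3 and 74 counts, or 3.76 CPM in library 1 (interval 2.82 to 4.92) and 5.17 CPM in library 4 (4.06 to 6.49). Xcr1 and Clec9a, a chemokine receptor and a receptor for dead cells on cross-presenting dendritic cells, had 25, 17, 11 and 30 counts and 26, 11, 4 and 12 counts. The sum of these 3 genes was 7.38, 2.47, 1.23 and 8.11 CPM, a 6.59-fold range, against 1.18-fold for Flt3. The number of Siglech counts for each Flt3 count ran from 0.00408 in library 3 to 0.101 in library 4, so Flt3 did not track the others.

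Some further plasmacytoid genes, picked after their values were seen, had the order of Siglech in outline, and others did not. The chemokine receptor gene Ccr9 was at 7.95, 2.9, 2.39 and 7.41 CPM, and Cox6a2 and Klk1 had 8, 5, 1 and 12 counts and 6, 2, 1 and 8 counts. Bst2, of the same dendritic list, was at 21.6, 16.8, 14.5 and 24.9 CPM, also lowest in library 3. Pacsin1 was at 76.6, 67.1, 81.2 and 96.9 CPM, lowest in library 2 and higher in library 3 than in library 1. Ccr9 is also made by T cells, whose summed level was highest in libraries 1 and 4, and the part of T cells was not tested. Of 14 further dendritic markers, Spib (427 TPM) and Ly6a (208 TPM) were the highest. Spib is a B cell factor too, at 728, 481, 496 and 470 CPM in libraries 1 to 4, lowest in library 4. Ly6a is found on T cells and activated B cells.

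Erythroid transcripts were highest in library 4 without exception among the 5 members. Hbb-bs, an adult beta globin gene, was at 12.7, 11.5, 11.3 and 41.4 CPM in libraries 1, 2, 3 and 4. Hbb-bt, its copy, was at 4.33, 3.85, 2.6 and 9.09 CPM. The alpha globin genes Hba-a1 and Hba-a2 were at 12.4, 10.1, 8.13 and 21.4 CPM and at 5.96, 9.65, 6.97 and 15.3 CPM. Alas2, the first enzyme of haem synthesis in red cell precursors, was at 1.7, 1.02, 1.44 and 5.03 CPM. Of the 50-base stretches in Alas2 transcripts, 11.5% also occur in other genes, most of all in Apex2, which was at 14.7 to 19.4 CPM. Libraries 1 to 3 lay close together, summing to 37.1, 36.1 and 30.4 CPM, and library 4 had 92.2 CPM.

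Other erythroid markers were mostly highest in library 4 too. Of 19 measured, 17 were highest in library 4, against 27.7% of all genes with at least 10 counts. Slc4a1, the anion exchanger of the red cell membrane, was at 4.76, 1.16, 0.342 and 8.88 CPM, and Car1, a carbonic anhydrase, at 0.852, 0.798, 0.889 and 5.31 CPM. The erythroid factor genes Gata1 and Klf1 had 11, 3, 0 and 27 counts and 2, 3, 3 and 15 counts. These 4 genes were picked after their values were seen. The exceptions were Hemgn, highest in library 1, and the transferrin receptor gene Tfrc (32.2 TPM, the most abundant), which dividing B cells also need and which was highest in library 3, at 114 CPM. The next by TPM was Bpgm (13.7 TPM), a red cell enzyme of glycolysis, at 25.06, 16.04, 19.96 and 26.0 CPM.

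The split of globin counts between copies is uncertain. Hba-a1 and Hba-a2 lie 12.8 kb apart on chromosome 11 and Hbb-bt and Hbb-bs 14 kb apart on chromosome 7, measured between the starts of their promoter windows. The coding sequences of each pair, 426 and 441 bases long, differ at 1 base, C381T from Hba-a1 to Hba-a2 and C417T from Hbb-bs to Hbb-bt, with positions counted from the first base of the start codon. Of the 50-base stretches in the transcripts of Hba-a1, 72.3% occur in Hba-a2, and of those in Hba-a2, 89.3% occur in Hba-a1. The shares were 53.2% for Hbb-bs and 58.3% for Hbb-bt. The last 99 coding bases are shown for each gene because they hold the base, in capitals, by which a coding read of 50 bases can tell the copies apart (GENCODE M21, GRCm38):
Hba-a1: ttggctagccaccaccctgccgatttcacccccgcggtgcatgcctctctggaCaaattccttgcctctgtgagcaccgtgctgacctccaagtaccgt
Hba-a2: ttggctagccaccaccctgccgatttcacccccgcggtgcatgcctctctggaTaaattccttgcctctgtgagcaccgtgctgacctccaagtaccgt
Hbb-bs: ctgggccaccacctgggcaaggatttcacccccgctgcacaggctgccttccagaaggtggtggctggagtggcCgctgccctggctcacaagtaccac
Hbb-bt: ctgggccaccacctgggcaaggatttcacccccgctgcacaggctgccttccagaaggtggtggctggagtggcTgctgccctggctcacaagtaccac
Reads within the coding sequence that do not reach this base have 2 places of origin. Reads that reach an untranslated region can have 2 as well, since 550 of the 616 stretches of Hba-a2 occur in Hba-a1. The ratio of Hba-a2 to Hba-a1 counts ran from 0.48 in library 1 to 0.957 in library 2, and that of Hbb-bt to Hbb-bs from 0.22 in library 4 to 0.341 in library 1.

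The promoters of the erythroid members are shown because these genes shared library 4 as their highest. Each line gives the 120 bases before the RefSeq transcription start (GRCm38.p6, read 5′ to 3′ on the gene's strand), with GATA sites in capitals:
Alas2 (chrX:150547297-150547416, + strand): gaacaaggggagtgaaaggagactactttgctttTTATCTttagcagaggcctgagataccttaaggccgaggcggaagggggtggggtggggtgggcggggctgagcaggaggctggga
Hba-a1 (chr11:32283552-32283671, + strand): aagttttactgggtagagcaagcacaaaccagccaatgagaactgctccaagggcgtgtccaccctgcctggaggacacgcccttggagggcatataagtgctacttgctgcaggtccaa
Hba-a2 (chr11:32296372-32296491, + strand): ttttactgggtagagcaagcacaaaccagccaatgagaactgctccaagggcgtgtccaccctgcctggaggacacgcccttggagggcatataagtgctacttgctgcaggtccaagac
Hbb-bs (chr7:103827929-103828048, − strand): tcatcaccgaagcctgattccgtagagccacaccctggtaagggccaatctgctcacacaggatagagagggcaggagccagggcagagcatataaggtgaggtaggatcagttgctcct
Hbb-bt (chr7:103813924-103814043, − strand): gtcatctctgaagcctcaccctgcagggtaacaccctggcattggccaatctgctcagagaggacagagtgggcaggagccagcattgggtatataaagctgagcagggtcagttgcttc
GATA sites were searched as AGATAA or TGATAA on both strands in the 250 bases before the start, and these differ in their opening letter alone. Alas2, Hba-a1, Hba-a2 and Hbb-bs held 1 each and Hbb-bt none, and the site of Alas2 was the 1 that fell within the bases shown. Of 32851 promoter windows of this length, 16.6% held at least 1. The sites of Hba-a1 and Hba-a2, at -183 and -186 from the start, are not independent matches, since these copies share nearly all the bases shown. The part of these sites in the levels of library 4 was not tested. A match is a run of letters, not a measured binding site.

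Platelet transcripts were highest in library 1. Ppbp, the precursor of a platelet chemokine, was at 20.7, 5.66, 3.28 and 4.54 CPM in libraries 1, 2, 3 and 4. Itga2b, the integrin chain that pairs with Itgb3 to bind fibrinogen, was at 15.6, 5.23, 4.58 and 7.48 CPM. Pf4, the platelet factor 4 gene beside Ppbp on chromosome 5, had 31, 13, 2 and 23 counts, and Gp9, a subunit of the von Willebrand factor receptor, had 46, 18, 2 and 19 counts. All 4 members were highest in library 1 and lowest in library 3. Their sum was 41.8, 13.1, 8.14 and 15 CPM, a 5.14-fold range that came to 1.84-fold without library 1.

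Further platelet markers were mostly highest in library 1, while their lowest library varied, with 9 of 15 lowest in library 3 and 4 in library 2. Of the 15 measured, 13 were highest in library 1, against 27.6% of all genes with at least 10 counts. Nrgn (32.2 TPM) was at 38.6, 17.3, 10.9 and 17.4 CPM and Itgb3 (12.2 TPM) at 43.9, 21.3, 32.7 and 29.6 CPM. The platelet tubulin gene Tubb1 and the von Willebrand factor gene Vwf, picked after their values were seen, were at 7.38, 1.74, 0.752 and 1.68 CPM and at 8.59, 2.54, 1.09 and 2.87 CPM. The exceptions were Thbs1, highest in library 3, and P2rx1, highest in library 4.

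The promoters of Ppbp and Pf4 are shown for the same stretch, since these chemokine genes lie side by side and both were highest in library 1 and lowest in library 3. They did not keep 1 proportion, with Pf4 to Ppbp count ratios of 0.106, 0.167, 0.0417 and 0.354 in libraries 1 to 4:
Ppbp (chr5:90768398-90768517, + strand): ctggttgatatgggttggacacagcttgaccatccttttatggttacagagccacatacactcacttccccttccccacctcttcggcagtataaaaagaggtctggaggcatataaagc
Pf4 (chr5:90772315-90772434, + strand): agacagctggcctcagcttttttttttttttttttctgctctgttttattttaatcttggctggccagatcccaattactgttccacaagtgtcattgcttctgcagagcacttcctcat
None of the 4 platelet members held either GATA motif in the 250 bases before the start in use here. This says only that these letters are not in this window.

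Among the members, libraries 1 and 4 held most of the highest values and library 3 most of the lowest. Of the 40 members, 16 were highest in library 1 and 17 in library 4, together 33, against 55.4% of all genes with at least 10 counts. Library 3 was lowest for 29 of the 40, against 25.9% of all such genes. Of the 107 further markers, library 3 was lowest for 41 and library 2 for 39, where library 2 was lowest for 32.8% of all such genes. Library 3 also had the lowest immediate early sum (10 genes that rise with handling or activation), at 5048, 9195, 2968 and 5053 CPM in libraries 1 to 4, and the lowest mitochondrial share of counts, at 20.6, 23.3, 18.1 and 19.8%. Their part in the members' levels was not tested. The macrophage sum varied 1.52-fold between libraries, the shared myeloid sum 2.22-fold, the neutrophil sum 2.77-fold, the erythroid sum 3.03-fold and the platelet sum 5.14-fold. The B lineage sum varied 1.2-fold. The lineages did not share 1 profile: library 1 led the platelet members, library 4 the erythroid members, and the macrophage members were highest in library 1 in 6 cases, library 4 in 3, library 2 in 2 and library 3 in 1. T cell genes were likewise highest in library 1 (14 of 15), with library 4 second in their sum. The part of T cells in these levels was not tested. By Dixon's criterion 1 library stood apart from the other 3 for 6 of the 40 members, against 6.44% of genes with at least 10 counts.

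**Figure D4:**
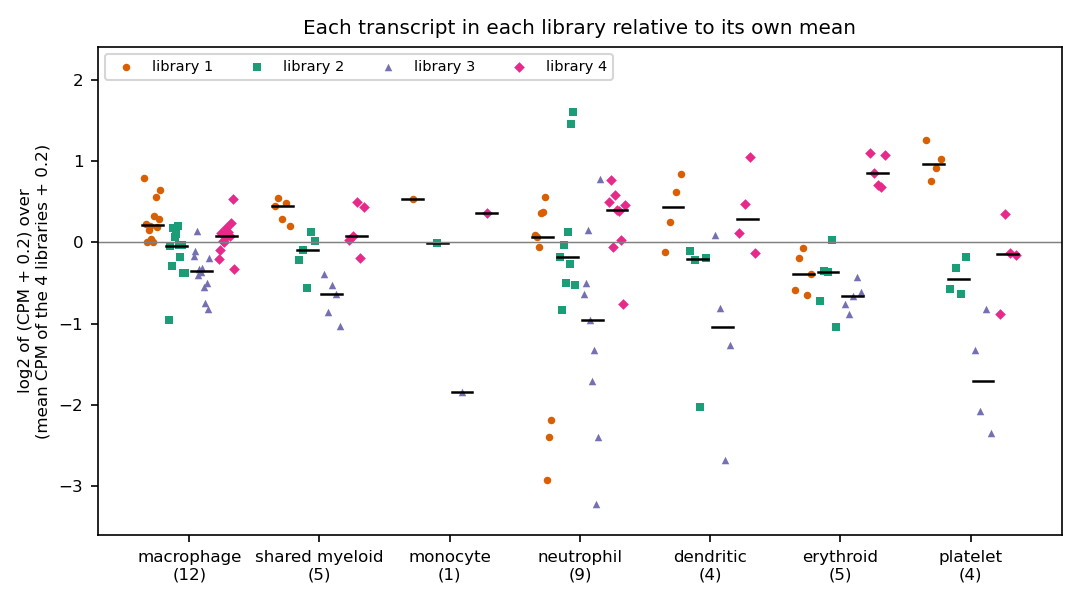
Each member in each library relative to its own mean, as the log2 ratio of CPM + 0.2, by lineage (number of genes in brackets), with the median of a library as a black bar. Library 1 has the highest platelet median and library 4 the highest erythroid median, and library 3 has the lowest median in every lineage.

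Most of these differences exceeded counting error. The exact 95% Poisson intervals of the highest and the lowest library were apart for 38 of 40 members, against 59.1% of 18162 genes with at least 10 counts, a share that depends on depth. Fcgr1 and Ly6g were the 2 whose intervals overlapped. The median coefficient of variation was 44.2% over the 36 members that averaged 1 CPM or more, and 16.7% over all 12475 genes at that level.

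For each gene, an edgeR quasi-likelihood fit over all genes asked whether its spread between libraries exceeded the trend for its level. Of the 40 members, 32 passed the filter on low counts, and 0 passed the test at a Benjamini-Hochberg adjusted p of 0.05, where 0.00835% of 11982 genes did. The filter kept genes with enough counts in all libraries and so left out Mpo, Elane, Retnlg, Ly6g, Siglech, Clec9a, Pf4 and Gp9. Before adjustment, 10 of the 32 members (31.2%) had a p under 0.05, against 4.97% of all genes tested. They were Ly6c2, Ppbp, Hbb-bs, Lyz2, Ngp, Ltf, S100a9, Itga2b, Camp and Alas2. The smallest edgeR adjusted p-values were those of Ly6c2 (adjusted p = 0.444), Ppbp (adjusted p = 0.473) and Hbb-bs (adjusted p = 0.5). None of these 10 can be called different between libraries after adjustment. Flt3 and Cd68 had among the largest edgeR values (adjusted p = 0.992 and 0.991), which does not show that they were equal in all libraries.

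**Figure D5:**
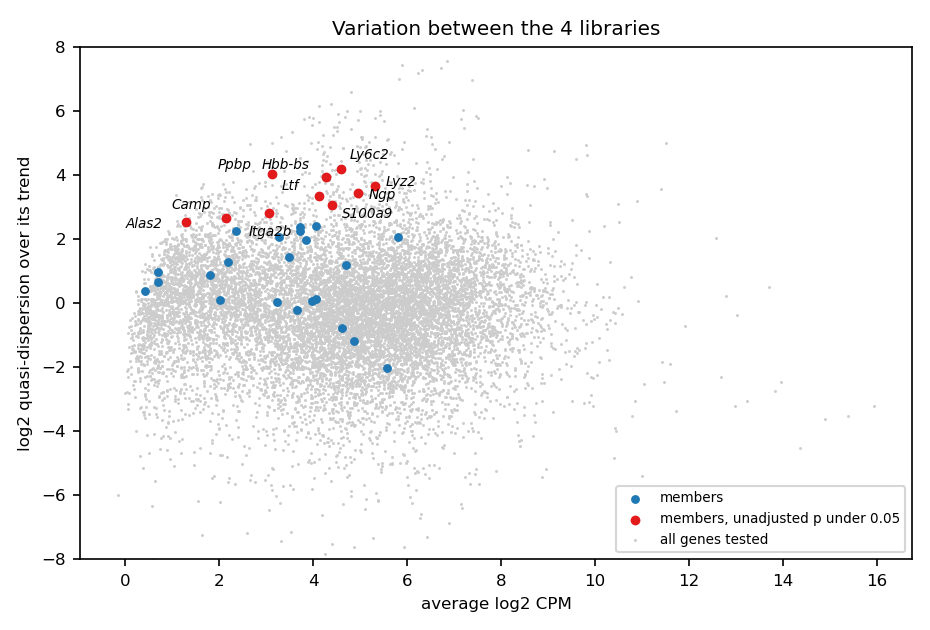
Spread of each gene (quasi-dispersion divided by the trend, log2) against its average log2 CPM in the 4 libraries, for the 32 members tested, in red where the unadjusted p is under 0.05, and all 11982 genes tested in grey. Of the 10 red points, Ly6c2, Ppbp and Hbb-bs are the highest, and Flt3 is the lowest member.

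Without the filter on low counts, the edgeR test passed 6 members, Mpo, Ppbp, Ly6c2, Siglech, Hbb-bs and Elane (adjusted p = 0.000156, 0.00194, 0.0057, 0.0089, 0.0117 and 0.0139), where 0.844% of 31026 genes passed. DESeq2 marked the same 6 members as dispersion outliers, where 0.67% of 31026 genes were marked. The robust form of the edgeR test passed 0 of 32 members, where 0.526% of genes passed. Of 61 further lineage markers tested in the filtered edgeR fit, 0 passed after adjustment and 13 (21.3%) had an unadjusted p under 0.05, against 4.97% of all genes.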

How the data were processed

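Poly(A) RNA of 4 libraries was sequenced as single reads of 50 bases on DNBseq, per the labels. The mm10 build, featureCounts 1.6.0, STAR 2.5.2b and FastQC are named in the submitters' processing notes. Which annotation release was used, and how strand and reads with several matches were handled, is not given in the sources used here. For each library the authors deposited 1 table of raw counts of reads by gene.

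CPM used the deposited totals (13777954 to 14629025 counts). TPM used exon lengths of GENCODE M21 (GRCm38, the assembly of mm10), which held 37536 of 37646 identifiers. Variation between libraries was tested on the counts with R 4.3.3 and edgeR 4.0.16, after filterByExpr and TMM scaling, in a quasi-likelihood fit whose sole term was the intercept, with the quasi-dispersion over its trend referred to the upper tail of F and Benjamini-Hochberg adjustment. DESeq2 1.42.0 was an alternative. P-values measure only the spread between these libraries. The test was tried on simulated data with 200 genes changed and the same dispersion for every gene, unlike the real data. Its recovery is not given here, so the trial does not tell how large a difference the test can miss. Python 3.11.15 and scipy 1.17.1 gave Poisson and Clopper-Pearson intervals. Promoter sequences are from RefSeq (GRCm38.p6), with 33 of 40 members matched. Shared stretches of 50 bases were sought on both strands of GENCODE M21 transcripts.

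The members and lists were chosen with earlier results of these data known. All 40 members are accounted for. Those named in full have a mean of at least 5 CPM or define a lineage, and of the further markers the 2 highest by TPM of each lineage are named. Other genes of the lineage lists named with values were picked after those values were seen. Genes named to check cell type, sex or shared sequence are outside this rule. Correlations over 4 libraries are not given.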

Additional observations from a re-analysis of the deposited data

Results flagged for a closer look

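In 6 of the 40 members, 1 library stood apart from the other 3 by Dixon's criterion for 4 samples, which is 15.0% of members, against 6.44% of genes with at least 10 counts. Chance flags about 5% of groups. Hbb-bs was at 41.4 CPM in library 4, against 11.3 to 12.7 CPM in the others, and the erythroid sum at 92.2 CPM, against 30.4 to 37.1 CPM. Ppbp was at 20.7 CPM in library 1, against 3.28 to 5.66 CPM. Elane was at 2.98 CPM in library 2, against 0 to 0.419 CPM. Csf1r was at 28.2 CPM in library 1, against 22.4 to 23.3 CPM, and Fcgr1 at 1.99 CPM in library 1, against 0.871 to 1.03 CPM. Ly6g was at 0.273 CPM in library 3, where it had 4 counts and each other library had 3.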

How the results depend on the processing

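The number of members past the variation test was 0 with DESeq2 size factors, with a mean of at least 1 CPM as the filter, with the robust fit and with each library left out (0 to 0), and 6 without the filter on low counts and 6 by DESeq2 dispersion outliers. Without the filter, 22 of 40 members had an unadjusted p under 0.05, against 1466 of 31026 genes. That setting also tests thinly counted members. It lowered the p of some members that the filter had kept as well. Hba-a1 had an unadjusted edgeR p of 0.0633 with the filter and 0.0221 without it, and Tyrobp 0.0895 and 0.0448. With 1 library left out, the number was 7 to 14 of 32 to 35 members, against 557 to 606 of 12071 to 12241 genes. No paired analysis was possible because all 4 libraries belong to 1 group. On the total without mitochondrial and immunoglobulin genes, summed levels were 313 CPM for macrophage, 68.4 for shared myeloid, 69.2 for dendritic and 693 for all members, since that total is smaller. Without the most abundant member, the macrophage sum was 179 CPM and the dendritic sum 4.8 CPM, whose range between libraries turned from 1.28-fold to 6.59-fold without Flt3. List medians were 3.7 for macrophage and -0.015 for dendritic genes with a pseudocount of 0.1, and 4.39 for neutrophil genes and 3.67 for all members among those with a mean of at least 1 CPM. With 1 library left out, sums ran from 215 to 249 CPM (macrophage), 45.9 to 58.1 (shared myeloid), 20.3 to 29.6 (monocyte), 75.4 to 103 (neutrophil), 49.6 to 53.9 (dendritic), 34.6 to 55.1 (erythroid), 12.1 to 23.3 (platelet) and 481 to 570.3 (all). The fold between libraries then ran from 1.27 to 1.52, 1.47 to 2.22, 1.46 to 5.33, 1.76 to 2.77, 1.11 to 1.28, 1.22 to 3.03, 1.84 to 5.14 and 1.41 to 1.73 in the same order. List medians ran from 3.78 to 3.83, 2.7 to 2.98, 3.92 to 4.61, 3.27 to 3.78, 0.83 to 1.23, 4.61 to 5.06, 1.81 to 2.47 and 3.1 to 3.44. The erythroid fold of 1.22 was without library 4, the platelet fold of 1.84 without library 1 and the Ly6c2 fold of 1.46 without library 3. Library 3 was lowest for 30 members, and libraries 1 and 4 highest for 32, on the TMM scale, which was tried after the data were seen. The cause was not tested. Levels near 3 counts, as of Ly6g, cannot be ordered at this depth.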

Other observations

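Of 10 genes of mast cells, basophils and eosinophils, Prg2, which encodes the major basic protein of eosinophil granules, held 87% of the summed counts. It had 273, 210, 50 and 152 counts in libraries 1, 2, 3 and 4, lowest in library 3. Epx, the eosinophil peroxidase gene, had 6, 1, 0 and 0 counts, and Siglecf 0, 0, 1 and 4 counts, so the other eosinophil genes were near the detection limit. The plasma cell genes were also lowest in library 3, at 1210 CPM, against 2340 to 2484 CPM in the others. Gata2, a factor of mast cells and basophils, had 4, 4, 12 and 13 counts. Among stromal genes, the fibroblast collagens Col1a1 and Col3a1 had 0 to 8 counts in a library, and Pecam1, which leukocytes and platelets also make, was at 80.2 to 112 CPM. The genes named here were picked after their values were seen.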
